A study of Homo sapiens with 12 samples.

Results

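The ISG15 conjugation pathway was examined through 6 genes chosen by their symbols, ISG15, USP18, HERC5, HERC6, UBA7 and UBE2L6, out of 25268 genes with a value. RNA was sequenced from HEK293, an established human embryonic kidney cell line, after forced expression of RBMX, an RNA-binding protein. By the paper, RBMX can lie in the nucleus or the cytoplasm. The cells were transiently transfected by lipofection with 2 μg of a plasmid, either pCMV6-HIS-HA-RBMX, in which the CMV promoter drives RBMX with a His-HA tag, or the mock empty vector, the control that the library names call WT. RNA was taken 48 h after transfection, so every control also went through transfection and received plasmid. Before lysis all cells were treated with cycloheximide, which holds ribosomes on their mRNAs, and the lysates were separated on sucrose gradients. Polysomal RNA came from the heavy fractions, and total RNA was pooled from 20% of every fraction of the gradient. There were 3 biological replicates for each vector and fraction, 12 libraries in all, each made from 500 ng of RNA.

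ISG15 is a small ubiquitin-like protein that is produced in response to type I interferon and is attached to lysines of other proteins. UBA7 is the E1 enzyme that activates it, UBE2L6 is the E2 enzyme that carries it, and HERC5 is the main E3 ligase that places it on newly made proteins in human cells. HERC6 is the closest relative of HERC5 and the main ISG15 ligase in mice. USP18 removes ISG15 from its targets and, bound to STAT2 at the interferon receptor, also damps interferon signalling. Genes of this kind are switched on through the interferon-stimulated response element (ISRE), to which a complex with STAT2 and IRF9 binds.

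In the GENCODE v29 annotation of GRCh38, ISG15 lies on chromosome 1 from 1001138 to 1014540, and USP18 on chromosome 22 from 18149899 to 18177397. HERC6 and HERC5 are neighbours on chromosome 4, from 88378739 to 88443111 and from 88457117 to 88506163. These 4 genes are on the plus strand. UBA7, on chromosome 3 from 49805207 to 49813946, and UBE2L6, on chromosome 11 from 57551656 to 57568284, are on the minus strand. All 6 are protein-coding genes. The submitters' processing notes name hg19 and the study's methods name hg38, and which of them lies behind the expression values is not stated. The positions here serve to locate the genes.

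RefSeq promoter windows, reaching from 250 bases before to 50 bases after a transcription start, were at hand for 4 of the 6 genes. They were searched on both strands for the core of the ISRE, which reads GAAA, any 2 bases and GAAA again on one strand, and TTTC, any 2 bases and TTTC on the other. Such a core was found in 3.57% of 35116 windows of this length. The stretches of ISG15 and HERC5 that hold it are shown here because these genes are the modifier and its ligase. They are plus strand, GRCh38.p14, 5′ to 3′, with the matches in capitals.
ISG15 chr1:1013377-1013406: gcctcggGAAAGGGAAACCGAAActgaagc
HERC5 chr4:88456987-88457016: attacagTTTCCTTTTCCTTTTCgattccg
HERC5 chr4:88457035-88457064: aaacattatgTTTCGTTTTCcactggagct
In ISG15 there were 2 overlapping matches, between 113 and 98 bases upstream of the start. HERC5 had 2 overlapping matches between 125 and 110 bases upstream, in the opposite orientation, and 1 more between 74 and 65 bases upstream. The 1 window of HERC6 and the 2 windows of UBE2L6 held no match, which says only that these letters are not in these windows. The GAS motif, another interferon-responsive element (TTC, any 3 bases, GAA on either strand), was present in 7.66% of the 35116 windows and in no window of the 4 genes. A match describes the sequence and was not tested for binding.

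Levels are given as FPKM, fragments per kilobase of transcript relative to all mapped fragments, as deposited. RBMX itself, which checks the labels, was at 147, 145 and 108 FPKM in the control total libraries (replicates 1 to 3) and at 1731, 2073 and 1460 in the RBMX total libraries. In polysomal RNA it was at 146, 148 and 87.4 in control cells and at 1167, 1328 and 1072 in RBMX cells. The log2 fold change of FPKM + 1 came to 3.71 for total RNA, with a limma adjusted p of 0.00269. For polysomal RNA it came to 3.25, with a limma adjusted p of 0.0415 that varied from 0.000331 to 0.213 between alternatives. The depth of the libraries is unknown. All 8 marker genes of HEK293 cells were at 1 FPKM or more in every group. Their summed level was 881 to 912 FPKM in the RBMX total libraries and 467 to 936 in the control total libraries, where replicate 3 was lowest, as it was in polysomal control RNA (430.5 to 983). The 7 blood and immune cell markers summed to between 1.41 and 2.72 FPKM and the 5 fibroblast markers to between 4.02 and 9.49. The part of these markers in the results was not tested. In both RBMX fractions, replicate 3 held the lowest level of every one of the 6 pathway genes. Values without this library are given as a description, because it was singled out by the levels of these same genes, and leaving it out enlarges their change and lowers their spread by construction.

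The modifier itself and the enzymes that attach or remove it were higher in RBMX-transfected cells than in control cells. For all 6 genes, each RBMX library lay above each control library, in total and in polysomal RNA. The ratio of the group means lay between 2.53 (HERC6) and 23.2 (UBA7) for total RNA, and between 2.64 (HERC6) and 20.2 (UBA7) for polysomal RNA. None of the 6 genes passed the adjusted threshold of 0.05 when tested among 14676 genes, and RBMX replicate 3 lay far below replicates 1 and 2. When RBMX replicate 3 was left out, ISG15, UBE2L6 and USP18 were below the threshold of 0.05 in both fractions, as was UBA7, which entered the test only through its RBMX libraries. That library was chosen for its low values of these genes, so these p-values are no independent support.

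ISG15 had 325, 353 and 218 FPKM in control total replicates 1 to 3, and 1810, 1799 and 603 FPKM in RBMX total replicates 1 to 3. The lowest RBMX library was still 1.71 times the highest control library, while RBMX replicate 3 was at 33.4% of the mean of replicates 1 and 2. The mean went from 298 ± 71.3 to 1404 ± 694 FPKM (SD, n = 3 each), a ratio of 4.71. On the log2(FPKM + 1) scale the change was 2.10 (standard error, SE, 0.49, 95% interval 0.88 to 3.31, limma adjusted p = 0.176). In such RNA from whole cultures, a larger share of cells that express a gene and more RNA per cell cannot be told apart.

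In polysomal RNA, ISG15 was at 352, 347 and 277 FPKM in control cells and at 2093, 1741 and 683 FPKM in RBMX cells. The groups were again apart, by 1.94 times between the closest libraries. The change was 2.06 on the log2 scale (SE 0.45, limma adjusted p = 0.400). ISG15 was the most abundant of the 6 mRNAs per unit length in every library.

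UBA7, the activating enzyme, was near the floor of the values in control cells, with 0.279, 0.216 and 0.319 FPKM in total RNA. It had 9.44, 8.45 and 0.985 FPKM in the RBMX total libraries. Its mean level went from 0.271 ± 0.0518 to 6.29 ± 4.62 FPKM (SD, n = 3 each), 23.2 times as high, but replicate 3 was at 11.0% of the mean of RBMX replicates 1 and 2. Even so, this library was 3.09 times the highest control library. UBA7 passed the minimum mean of 0.5 FPKM required for testing only through the RBMX libraries, which the other 5 genes did not need.

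Because its control level was so low, the size of the UBA7 change depended on the constant added before the logarithm. It was 2.19 (SE 0.66, limma adjusted p = 0.196) with 1 FPKM added and 3.60 with 0.1 FPKM added. In polysomal RNA, UBA7 had 0.260, 0.224 and 0.346 FPKM in control cells and 7.94, 7.94 and 0.901 FPKM in RBMX cells. The polysomal change was 2.06 (SE 0.63, limma adjusted p = 0.400) with 1 FPKM added and 3.43 with 0.1 FPKM added.

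UBE2L6, the carrier enzyme, had the largest log2 fold change of the 6 genes with 1 FPKM added, though not with 0.1 FPKM added, where UBA7 exceeded it. It was at 27.0, 26.1 and 15.7 FPKM in control total RNA and at 238, 234 and 48.5 FPKM in RBMX total RNA. Replicates 1 and 2 were close to each other in both groups, and RBMX replicate 3 was at 20.5% of their mean. The mean went from 22.9 ± 6.31 to 174 ± 108 FPKM (SD, n = 3 each), a log2 change of 2.60 (SE 0.67, limma adjusted p = 0.178). Polysomal UBE2L6 was at 25.8, 26.4 and 19.6 FPKM in control cells and at 252, 240.3 and 54.8 in RBMX cells. The polysomal log2 change was also 2.60 (SE 0.62, limma adjusted p = 0.400), with the closest libraries 2.07 times apart.

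HERC5, the ligase, was at 18.9, 22.0 and 8.30 FPKM in control total RNA and at 54.9, 59.6 and 23.0 FPKM in RBMX total RNA. Here replicate 3 was the low library with either vector, at 40.6% of the mean of replicates 1 and 2 in control cells and 40.1% in RBMX cells. As a result the groups were nearly in contact, with RBMX replicate 3 at 1.04 times control replicate 2. The log2 change was 1.42 (SE 0.50, limma adjusted p = 0.234). In polysomal RNA, HERC5 was at 21.5, 21.6 and 7.21 FPKM in control cells and at 63.7, 63.3 and 25.4 FPKM in RBMX cells, a log2 change of 1.57 (SE 0.55, limma adjusted p = 0.407).

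HERC6, the adjacent relative, had the smallest log2 fold change of the 6 with 1 FPKM added. Its levels were 7.37, 8.43 and 4.87 FPKM in control total RNA and 20.8, 21.4 and 10.1 FPKM in RBMX total RNA. The log2 change was 1.18 (SE 0.34, limma adjusted p = 0.189). Replicate 3 was again lowest with either vector, at 61.7% of the mean of replicates 1 and 2 in control cells and 47.6% in RBMX cells. Polysomal HERC6 was at 7.79, 8.11 and 4.40 FPKM in control cells and at 21.9, 21.4 and 10.4 FPKM in RBMX cells, a log2 change of 1.25 (SE 0.35, limma adjusted p = 0.400). HERC5 and HERC6 share sequence, and their longest coding transcripts aligned over 1028 bases with 76.3% identity.

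USP18, the enzyme that removes ISG15, was higher together with the enzymes that attach it. It was at 22.4, 25.8 and 15.7 FPKM in control total RNA and at 87.6, 88.7 and 41.3 FPKM in RBMX total RNA, with the closest libraries 1.60 times apart. Its log2 change was 1.67 (SE 0.35, limma adjusted p = 0.170). In polysomal RNA it was at 24.3, 25.1 and 17.3 FPKM in control cells and at 92.5, 103.9 and 44.4 FPKM in RBMX cells, a change of 1.73 (SE 0.35, limma adjusted p = 0.400). The values of USP18 carry a doubt of their own, as its longest coding transcript and that of USP41 align over 917 bases with 98.7% identity. Fragments of the pair may be hard to tell apart. USP41 is not among the gene symbols with a value, and how its fragments were counted is not stated.

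**Figure D1:**
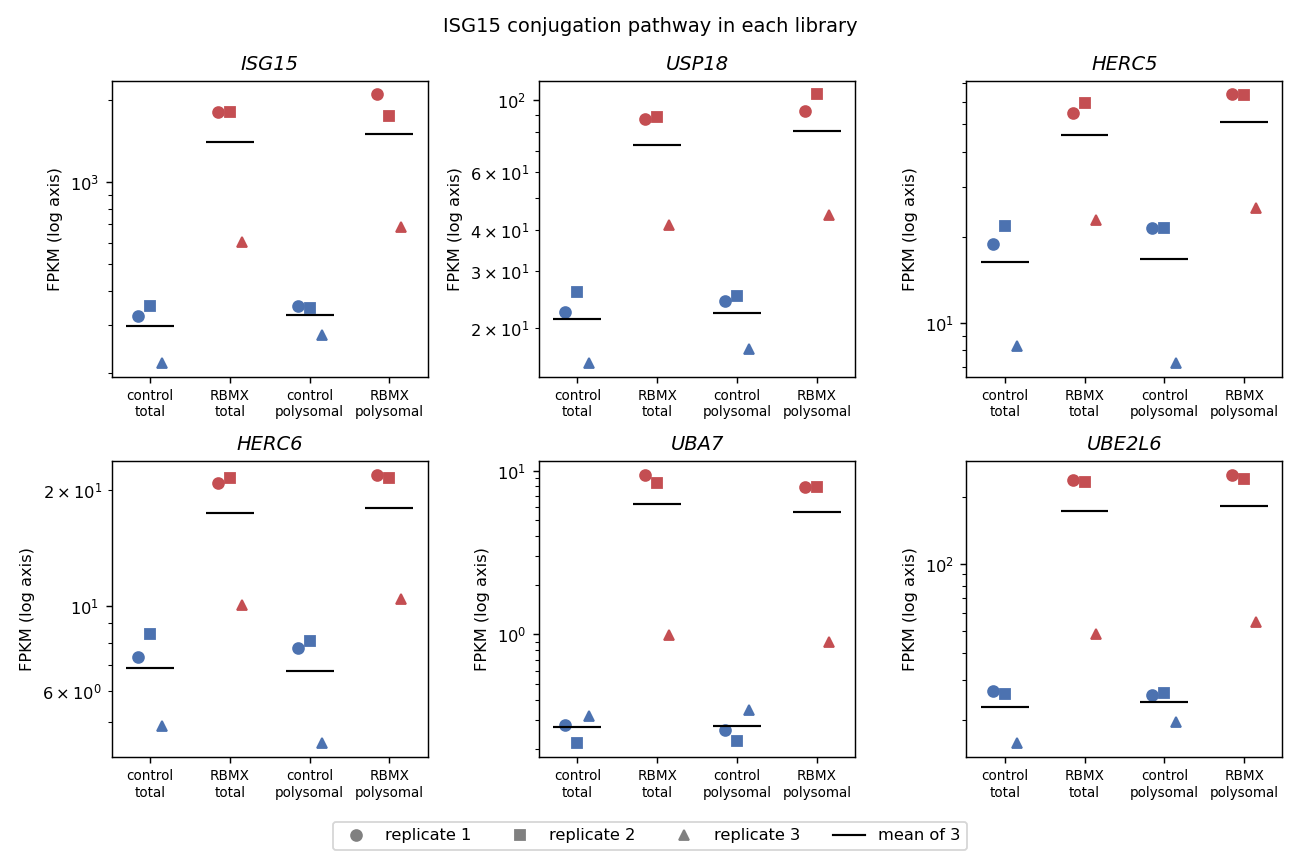
FPKM of the 6 pathway genes in each of the 12 libraries, on log axes whose range differs between panels. Blue points are control and red points RBMX libraries, the shape gives the replicate and the line is the mean of 3. In each panel all red points lie above all blue points of the same fraction, and the red triangle, RBMX replicate 3, is the lowest of its group.

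Set against all genes, 6 of the 6 had groups that did not overlap with the RBMX libraries above, as did 11.9% of all genes tested in total and 10.0% in polysomal RNA. The 6 genes were chosen with earlier results of these data known, and UBA7 entered the test only through its RBMX libraries. The counts set beside all genes here are therefore a description and no test of the pathway. For each of the 6 the two-sided exact permutation test gave p = 0.1 in either fraction, the smallest that 3 against 3 libraries allow. With limma and Benjamini-Hochberg adjustment, 24 of 14676 genes (0.164%) passed in total and 7 (0.0477%) in polysomal RNA, and 0 of the 6 were among them in either fraction. At an unadjusted limma p under 0.05, 6 of 6 were higher in total RNA, beside 7.93% of all genes, and 6 of 6 in polysomal RNA, beside 5.16%. The median log2 fold change of the 6 was 1.88 in the total and 1.90 in the polysomal fraction, and the median of all genes was 0 in both. From the 5th to the 95th percentile, all genes spanned -0.30 to 0.40 in the total and -0.35 to 0.40 in the polysomal fraction. By log2 fold change the 6 genes stood between rank 147 (UBE2L6) and rank 232 (HERC6) from the top in the total and between rank 120 (UBE2L6) and rank 215 (HERC6) in the polysomal fraction.

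The spread within groups came mainly from replicate 3. In RBMX total RNA, replicate 3 was at 11.0% (UBA7) to 47.6% (HERC6) of the mean of replicates 1 and 2, and in RBMX polysomal RNA at 11.3% (UBA7) to 48.2% (HERC6). The median over all genes tested was 101% and 103% in these groups, a value that the scaling of the libraries to each other also sets. RBMX itself was less reduced, at 76.8% in total and 85.9% in polysomal RNA. In control total RNA, replicate 3 was at 40.6% (HERC5) to 64.9% (USP18) for 5 of the 6 genes. UBA7 was the exception, with replicate 3 at 129% of the mean of the other total and 143% of that of the other polysomal control libraries. Over all genes tested, replicate 3 spanned 57.8% to 153% in control total RNA from the 5th to the 95th percentile. Of the 6 genes, HERC5 alone lay outside that span. In RBMX cells the span was 71.2% to 123% in total and 66.3% to 130% in polysomal RNA. The sources used here give no date or batch for the replicates, and what sets replicate 3 apart was not tested.

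**Figure D2:**
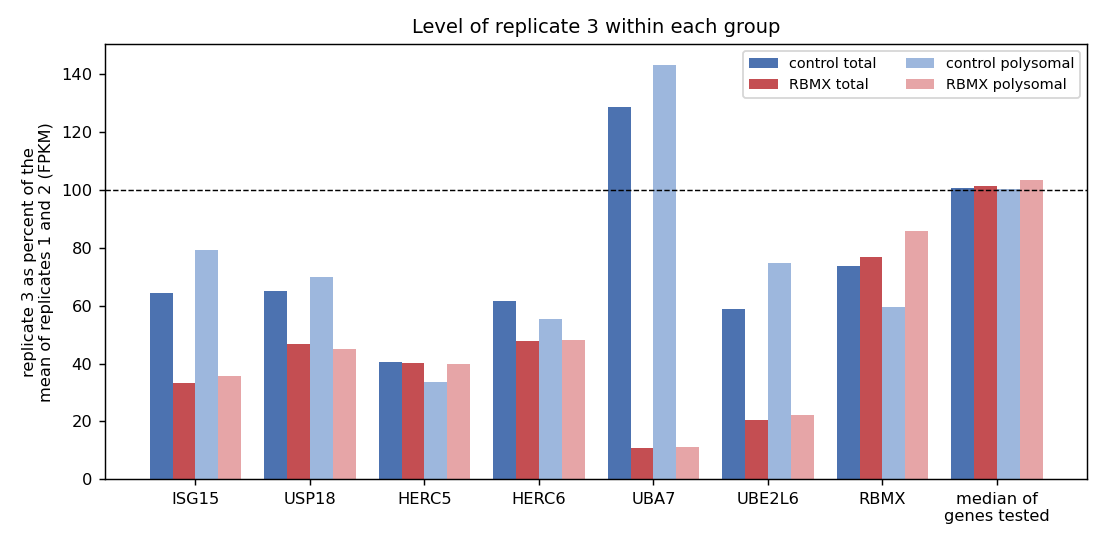
FPKM of replicate 3 as a percent of the mean of replicates 1 and 2, for the 6 pathway genes, RBMX and the median of all genes tested, in each of the 4 groups. The dashed line marks equal levels. The bars of the pathway genes in RBMX cells (dark and light red) stop between 11.0% and 48.2%, while those of the median gene stand between 100% and 103%.

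Without RBMX replicate 3, with 3 control and 2 RBMX libraries, the log2 change in total RNA was 3.35 for UBE2L6 (limma adjusted p = 0.0171), 2.62 for ISG15 (limma adjusted p = 0.0276) and 2.03 for USP18 (limma adjusted p = 0.0434). Thus 3 of the 5 genes that needed no RBMX library to enter the test were below the threshold, and HERC5 and HERC6 were not. Of all 14676 genes, 158 passed with a higher and 20 with a lower level in RBMX cells in this fit. UBA7 had a change of 2.97 (limma adjusted p = 0.000526), but its low p is no support, since only its high RBMX libraries brought it past the minimum level. In polysomal RNA the same 3 genes were below the threshold, with changes of 3.32 for UBE2L6 (limma adjusted p = 0.00528), 2.56 for ISG15 (0.0254) and 2.11 for USP18 (0.0311), and UBA7 had 2.81 (0.000751). There 118 of all genes passed with a higher and 8 with a lower level in RBMX cells. Without replicate 3 of both vectors, a choice made after seeing the data, 6 of 6 genes were below the threshold in each fraction, and the same limits hold. Of all 14676 genes, 259 then passed higher and 47 lower in total RNA, and 308 higher and 40 lower in polysomal RNA. In total RNA HERC5 then changed by 1.44 (limma adjusted p = 0.0207) and HERC6 by 1.31 (limma adjusted p = 0.0171). That fit rests on 2 libraries a group. Over all alternatives, the lowest limma adjusted p of a gene was between 0.000526 and 0.0207 and the highest between 0.539 and 0.585 in total RNA. For polysomal RNA the lowest was between 0.000751 and 0.0254 and the highest between 0.799 and 0.801.

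**Figure D3:**
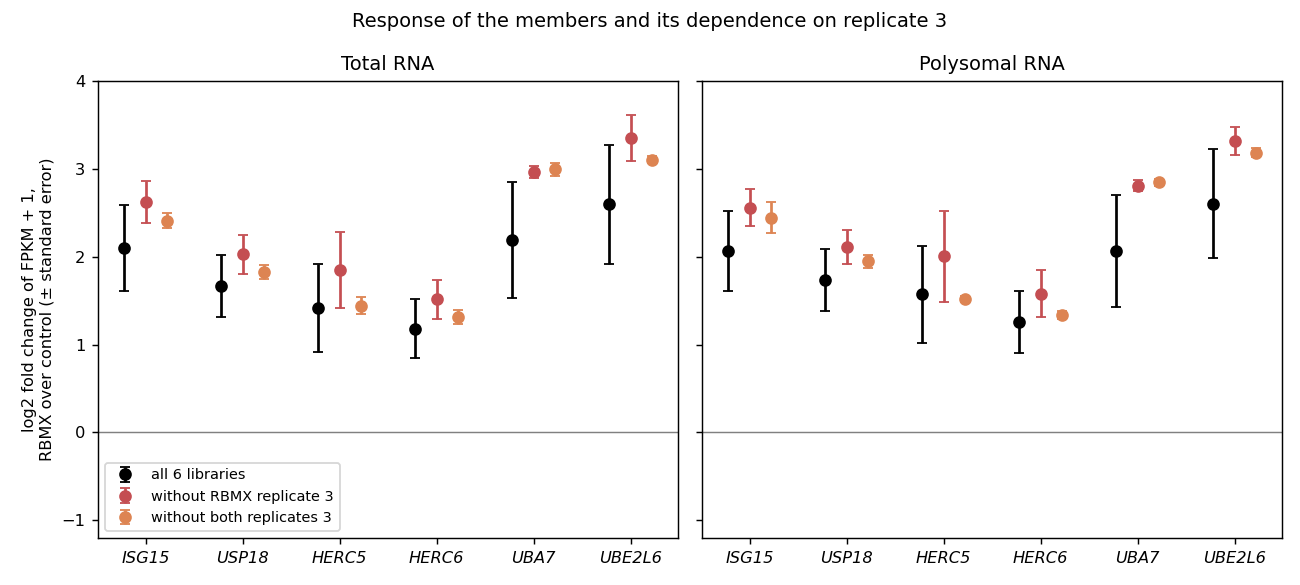
Log2 fold change of FPKM + 1, RBMX over control, for each of the 6 genes in total (left) and polysomal RNA (right), with all 6 libraries (black), without RBMX replicate 3 (red) and without replicate 3 of both vectors (orange). Bars are limma standard errors. All 36 values lie above 0, as they must where the groups do not overlap, and the bars are shorter without replicate 3 of both vectors.

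The 6 genes had the same order of mean levels in all 4 groups. By mean FPKM, a scale that accounts for transcript length, ISG15 stood first, followed by UBE2L6, USP18, HERC5, HERC6 and UBA7. ISG15 was separated from UBE2L6, and HERC6 from UBA7, in every group. The ranges of UBE2L6 and USP18 overlapped in all 4 groups, as did those of USP18 and HERC5. HERC5 and HERC6 overlapped in control cells but not in RBMX cells.

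Relative to ISG15, UBA7 was higher and HERC6 lower in each RBMX library than in each control library of the same fraction. In total RNA UBA7 was at 0.0859%, 0.0612% and 0.146% of the ISG15 level in control replicates 1 to 3 and at 0.522%, 0.470% and 0.163% in RBMX replicates 1 to 3. HERC6 differed in the other direction, from 2.27%, 2.39% and 2.24% of the ISG15 level in control cells to 1.15%, 1.19% and 1.67% in RBMX cells. In polysomal RNA the closest libraries, replicate 3 of each vector, nearly met. UBA7 was there at 0.125% in control and 0.132% in RBMX cells, and HERC6 at 1.59% and 1.53%. USP18 and HERC5 were also lower relative to ISG15 in total RNA, by 0.38 and 0.62 on the log2 scale of the ratio, with HERC5 replicate 3 of both vectors at 3.8%. UBE2L6 was at 8.31%, 7.40% and 7.19% in control and at 13.2%, 13.02% and 8.05% in RBMX total RNA, so that its groups overlapped. In polysomal RNA UBE2L6 was at 7.33%, 7.62% and 7.07% in control and at 12.0%, 13.8% and 8.03% in RBMX cells, without overlap. The polysomal ratios of USP18 and HERC5 overlapped between vectors. Any gene that changes less than ISG15 falls relative to it, and the share of all genes with such ratios apart was not computed. Over the 5 enzymes and 2 fractions, 10 ratios were compared, and 7 did not overlap between vectors. For these 7 the two-sided exact permutation p was 0.1, or 0.143 after Benjamini-Hochberg adjustment over the 10, and no ratio could pass at this size.

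The log2 fold changes in polysomal RNA were close to those in total RNA, with intervals whose width depended on whether total and polysomal libraries were paired. The log2 fold change in polysomal RNA minus that in total RNA was -0.032 for ISG15 (95% interval -1.60 to 1.54) and 0.067 for USP18 (-1.12 to 1.26). It was 0.16 for HERC5 (-1.62 to 1.94), 0.072 for HERC6 (-1.08 to 1.23), -0.13 for UBA7 (-2.31 to 2.06) and 0.0095 for UBE2L6 (-2.17 to 2.19). No difference passed for the 6 genes (limma over 12 libraries), while 3 of all genes (0.0204%) did, and 0 of the 6 had an unadjusted p under 0.05, beside 0.600% of all genes. These intervals treat the 12 libraries as unpaired. With the culture as a block, which pairs the total and polysomal library of a replicate, the estimates stayed as they were and the 95% intervals became narrower, from -0.41 to 0.35 for ISG15, -0.12 to 0.26 for USP18, -0.097 to 0.41 for HERC5, -0.10 to 0.25 for HERC6, -0.30 to 0.046 for UBA7 and -0.26 to 0.28 for UBE2L6. Each of these includes 0, and the widest limits correspond to ratios of 0.752 (ISG15) and 1.33 (HERC5).

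Within a culture, the polysomal and total values of these genes were close. The polysomal over total FPKM ratio lay between 0.841 and 1.27 for all 6 genes in all 6 cultures, with a median of 1.05. For ISG15 it was 1.08, 0.985 and 1.27 in control cultures 1 to 3 and 1.16, 0.968 and 1.13 in RBMX cultures 1 to 3. The lowest ratio was that of UBA7, with 0.841, 0.940 and 0.914 in RBMX cultures 1 to 3. Between polysomal and total RNA, 0 of the 6 genes passed in control cells and 0 in RBMX cells (limma), where 0.0818% and 1.34% of all genes did, and 0 of the 6 had an unadjusted p under 0.05, beside 8.04% and 23.0% of all genes. The low level of RBMX replicate 3 was thus measured in both of its libraries, which by the extraction protocol come from one gradient.

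**Figure D4:**
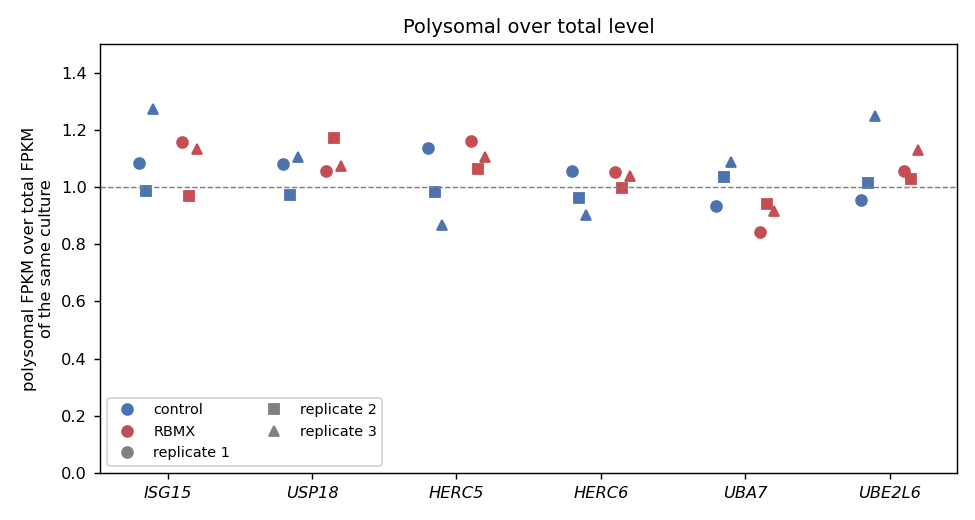
Polysomal FPKM divided by total FPKM of the same culture for the 6 genes, with control cultures in blue and RBMX cultures in red and the replicate given by the shape. The dashed line marks equal FPKM in both fractions. All points lie between 0.841 and 1.27, and control and RBMX cultures overlap for every gene.

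Other enzymes that add or remove ISG15 mostly differed little between the vectors. Of 9 such genes, 0 passed in total and 0 in polysomal RNA (limma), and their median log2 fold change was 0.029 and 0.033. TRIM25, an interferon-inducible ligase reported to attach ISG15, was the 1 gene of the 9 with RBMX libraries above all control libraries. Of all genes tested, 11.9% in total and 10.0% in polysomal RNA were so, and 1 of 9 is near that share. It had 39.6, 41.6 and 22.9 FPKM in control and 76.2, 74.9 and 48.8 FPKM in RBMX total RNA, a log2 change of 0.94 (SE 0.29, limma adjusted p = 0.201). The deubiquitinases USP2, USP5, USP13, USP14, USP16 and USP21, the ligase ARIH1 and the E2 enzyme UBE2E1 had log2 fold changes from -0.12 to 0.29 in total RNA.

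Among the 7 genes of the interferon receptor complex on which USP18 acts, the receptor chains and kinases had small differences, and for STAT2 and IRF9 each RBMX library lay above each control library in both fractions. IFNAR1 and IFNAR2, the receptor chains, had log2 fold changes of -0.18 and -0.050 in total RNA, and the kinases JAK1 and TYK2 had 0.099 and 0.27. STAT2, which also holds USP18 at the receptor, was at 15.6, 14.2 and 19.8 FPKM in control and at 65.8, 64.6 and 23.7 FPKM in RBMX total RNA. Its log2 change was 1.45 with a limma adjusted p of 0.189, or 1.34 in the polysomal fraction with one of 0.403, and RBMX replicate 3 again lay close to the control libraries. IRF9, which binds DNA together with STAT2, differed by 0.93 (limma adjusted p = 0.174) in total RNA. Of the 7, 0 passed in either fraction with all libraries. Without RBMX replicate 3, STAT2 and IRF9 were below the threshold in total RNA, at 1.93 (limma adjusted p = 0.0176) and 1.14 (limma adjusted p = 0.0477), but in polysomal RNA 0 of the 7 were (limma). Of all 14676 genes, 158 passed higher and 20 lower in that fit of total RNA. The library left out was singled out by low levels of the pathway genes and was low for STAT2 and IRF9 too. These p-values are therefore no independent support.

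Proteins reported to carry or bind ISG15 were a mixed group, with a median log2 fold change of 0.26 in total and 0.22 in polysomal RNA over 13 genes. Of these, 6 had RBMX libraries above all control libraries in each fraction, beside the 11.9% and 10.0% of all genes given above, and 0 passed (limma). IFIT1, which binds foreign RNA, had 67.0, 78.3 and 24.9 FPKM in control and 475, 559 and 132 FPKM in RBMX total RNA, a log2 change of 2.66 (SE 0.70, limma adjusted p = 0.182). DDX58, the gene of the RNA sensor RIG-I, differed by 1.84 (limma adjusted p = 0.176) and MX1, an antiviral GTPase, by 1.30 (limma adjusted p = 0.176) in total RNA. PCNA, the sliding clamp of DNA replication, differed by 0.22 in total RNA, with overlapping groups. Without RBMX replicate 3, DDX58 (change of 2.31, limma adjusted p = 0.0434) and MX1 (1.64, limma adjusted p = 0.0471) were below the threshold in total RNA. In polysomal RNA MX1 was the 1 gene of the 13 below it (1.64, limma adjusted p = 0.0438). Of all 14676 genes, 158 passed higher and 20 lower in that fit of total RNA, and 118 higher and 8 lower in that of polysomal RNA. The library left out was singled out by low levels of the pathway genes and was low for DDX58 and MX1 too. These p-values are therefore no independent support.

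**Figure D5:**
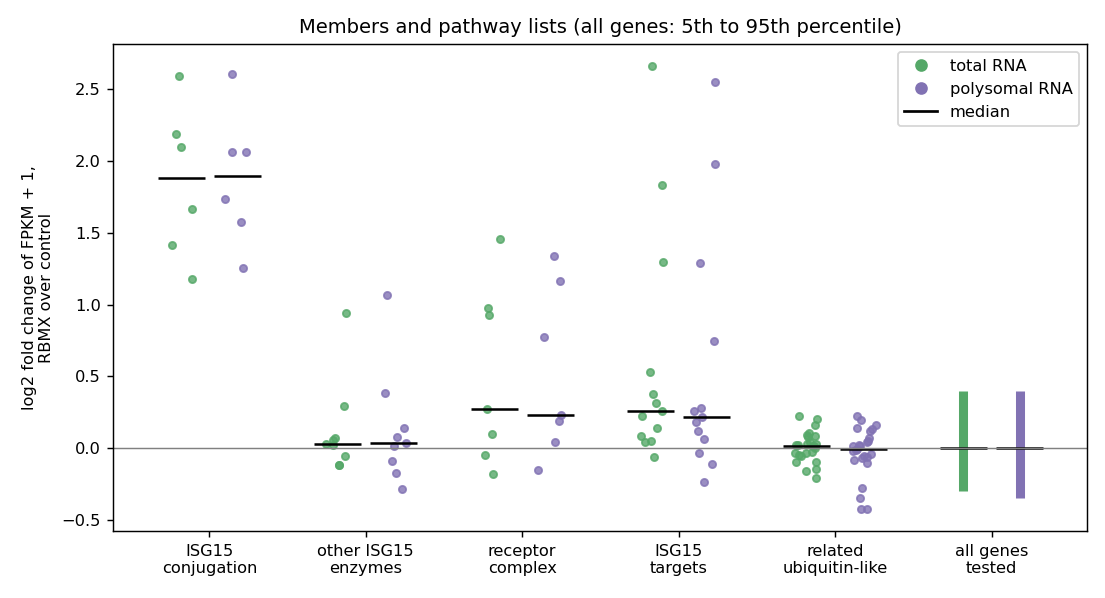
Log2 fold change of FPKM + 1, RBMX over control, for each gene of 5 lists in total (green) and polysomal RNA (purple), with medians as black lines. Bars at the right span the 5th to the 95th percentile of all genes tested. The 6 conjugation genes lie between 1.18 and 2.60, above that span, while the related ubiquitin-like genes lie between -0.43 and 0.23.

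The genes whose profile over the 12 libraries was most like each of the 6 were found by the root mean square difference of log2(FPKM + 1), each gene centred on its mean, among 14158 other genes that are not small RNA genes. This measure is a description, and the libraries share cultures. For UBE2L6 the nearest was BST2 (0.066), followed by IFITM1 and IFITM3, and for HERC6 it was TRIM5 (0.084), followed by PARP9 and DDX60. ISG15 was nearest to IFI6 (0.12), USP18 to APOL2 (0.14), HERC5 to SP110 (0.15) and UBA7 to C19orf66 (0.14). BST2, for example, had 23.2, 23.0 and 14.8 FPKM in control and 223, 225 and 46.2 FPKM in RBMX total RNA, with replicate 3 low as in UBE2L6. The 6 genes were less close to each other, the nearest pairs being USP18 with HERC6 (0.26) and USP18 with ISG15 (0.26), and the farthest HERC6 with UBE2L6 (0.81).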

How the data were processed

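The authors deposited 1 FPKM value for each of 25268 gene symbols in each of the 12 libraries. The submitters' processing notes name CASAVA 1.8, TopHat2 2.0.13, Cufflinks 2.2.1, Cuffnorm and hg19. The paper's methods name another route, with hg38, GENCODE v27, read counts scaled to library size and differential expression on counts. Which annotation and scaling made the FPKM values is not stated, and no counts were used here. Reads were sequenced at 2 × 100 bp. Library columns were matched to vector, fraction and replicate by name, and 0 columns were left out.

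Values were compared as log2(FPKM + 1) in R 4.3.3 with limma 3.58.1 (lmFit, eBayes with trend) for the 14676 genes with a mean of at least 0.5 FPKM over the 12 libraries. Adjustment over all of them followed Benjamini and Hochberg, with a threshold of 0.05. For genes of low level this scale gives too small a change. Each vector comparison used the 6 libraries of its fraction, and the difference between fractions used all 12. Single values were tested by two-sided exact permutation. Python 3.11.15, scipy 1.17.1, matplotlib 3.10.9 and BLAST 2.17.0 served for permutation, plots and alignment of transcripts.

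The number of fragments is unknown, because no more than 23.5% of low genes in a library shared one step, so no detection limit is given. FPKM sums ran from 817528 to 1903317, of which small RNA genes took 40.6% to 72.9%, and median-ratio size factors from 0.980 to 1.03. By the extraction protocol, total and polysomal RNA of one replicate come from the same gradient, which pairs them, although the treatment protocol speaks of 2 dishes. Across 14159 genes, which are not independent, the correlation of how both deviated from their group mean was 0.623, 0.723 and 0.847 in control replicates 1 to 3 and 0.230, 0.0256 and 0.692 in RBMX replicates 1 to 3. RBMX replicates 1 and 2 correlated more with the other fraction of each other (0.430 and 0.512). In control cells, total replicate 1 correlated with polysomal replicate 2 at 0.671, and total replicate 2 with polysomal replicate 1 at 0.656. Control replicates 1 and 2 were thus hardly told apart, and the data bear the pairing out only in part.

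The pathway genes and lists were chosen with earlier results of these data known. Named genes were the 6 genes, RBMX and, per list, the 3 with the largest change in each fraction. Some results covered by this rule are not reported here. Genes outside it were named after their values were seen. On simulated data from these libraries, with 200 of 14676 genes changed, the fit recovered 71% of planted log2 changes of 1 and 94% of those of 2 in total RNA, and 72% and 95% in polysomal RNA. The simulated noise was independent between libraries and genes, and each gene had the same spread in all groups. It held no low replicate 3 shared by many genes, so these rates do not carry over to the 6 pathway genes. As alternatives, 0.1 FPKM was added in place of 1, the minimum mean was 0.1 or 1 FPKM or none, and values were rescaled by median ratios or quantile-normalised. The fit was also made with no trend in eBayes, with the replicate or the culture as a block, on the 12 libraries jointly, and without each library in turn. Leaving out replicate 3 of both vectors was added after seeing the data.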

Additional observations from a re-analysis of the deposited data

How the results depend on the processing

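For the 6 pathway genes, RBMX against control kept its direction in all 192 values under the alternatives, and 21 of these passed the threshold where the fit with all libraries did not. Because the groups of these genes do not overlap, only rescaling or quantile normalization could have reversed the direction. That it was kept is therefore little support. The number of the 6 genes that passed was 0 in each fraction. It ranged from 0 to 4 in total and from 0 to 4 in polysomal RNA when 1 library was left out, with 4 only without RBMX replicate 3, and was 6 in each without replicate 3 of both vectors. Across genes, equal replicate numbers gave no steady pairing of the vectors. The correlations were 0.348, -0.0430 and 0.0224 in total and -0.157, 0.0457 and 0.0778 in polysomal RNA. Among the pathway genes, all but UBA7 had replicate 3 lowest with both vectors. A replicate block for the replicate number gave 1 gene in total RNA (HERC5, limma adjusted p = 0.0489) and 0 in polysomal RNA. A replicate block for the culture left 0 of the 6 past the threshold for polysomal against total RNA and for the difference between fractions. For polysomal against total RNA it lowered the count over all genes from 12 to 6 in control and from 196 to 4 in RBMX cells.

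The limma adjusted p of the 6 genes ranged over the alternatives from 0.000526 (UBA7) to 0.585 (HERC5) in total RNA and from 0.000751 (UBA7) to 0.801 (HERC5) in polysomal RNA. The difference between fractions had no stable sign, and 31 of its 120 values reversed. With 1 library left out it ranged from -0.56 to 0.46 for ISG15, -0.29 to 0.44 for USP18, -0.33 to 0.59 for HERC5, -0.26 to 0.40 for HERC6, -0.90 to 0.62 for UBA7 and -0.74 to 0.72 for UBE2L6, and quantile normalization gave 0.54 for ISG15. The cause of these shifts was not tested.

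Over all genes, 24 passed in total and 7 in polysomal RNA. These counts were 62 and 14 with a minimum of 0.1 FPKM, 77 and 31 with no minimum, 60 and 22 in a joint fit of the 12 libraries, 13 and 3 with the replicate block, 178 and 126 without RBMX replicate 3, and 306 and 348 without replicate 3 of both vectors. Unknown depth limits what can be said of UBA7 in control cells.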

Other observations

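Genes of ubiquitin and of other ubiquitin-like modifiers, with the relatives of the 6 enzymes, differed little between vectors. Of 25 tested, 0 passed in total and 0 in polysomal RNA (limma), and their median log2 fold change was 0.014 and -0.0049. UBA1, the activating enzyme of ubiquitin, differed by 0.20 on the log2 scale in total RNA (limma adjusted p = 0.671), where UBA7 differed by 2.19. UBE2L3, the closest relative of UBE2L6, was at 47.5, 48.5 and 51.4 FPKM in control and at 46.5, 47.6 and 47.5 FPKM in RBMX total RNA, a log2 fold change of -0.055 (limma adjusted p = 0.584). HERC3, a small HERC gene, had -0.026 in total RNA (limma adjusted p = 0.935). NEDD8, the modifier of neddylation, was lower in all 3 RBMX than in all 3 control polysomal libraries, with a log2 fold change of -0.35 (limma adjusted p = 0.487).

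The genes beside the 6 on the chromosome had smaller differences in most cases. HES4 and AGRN, on either side of ISG15, had log2 fold changes of 0.60 (limma adjusted p = 0.157) and 0.66 (limma adjusted p = 0.205) in total RNA. PIGY and PPM1K, which flank HERC5 and HERC6, had -0.077 and 0.44, and TRAIP, beside UBA7, had 0.34 with a limma adjusted p of 0.170. SERPING1, the gene of the C1 inhibitor of complement beside UBE2L6, was at 1.84, 2.24 and 2.14 FPKM in control and at 10.9, 11.4 and 2.47 FPKM in RBMX total RNA, a log2 fold change of 1.38 (limma adjusted p = 0.244), with replicate 3 low again. MIR5193, beside UBA7, was listed at 115 FPKM in RBMX total replicate 1 and at 0 in the other 11 libraries.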
